A study of Mus musculus with 10 samples.

Results

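The collagen genes are the genes whose array symbol has the form of a collagen chain, the letters Col followed by the number of the collagen type, the letter a and the number of the chain. They were found by this pattern among the array's probes that are no controls, without use of any measured value. This gave 43 genes, measured by 68 probes in 77 spots, of 34797 symbols, 55681 probes and 59305 spots in all. A single probe measured 25 of the genes, and 18 had more than 1.

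The tissue was epididymal white adipose tissue (eWAT), the fat pad along the epididymis of male mice. All 10 mice belonged to 1 group. They were C57BL/6JOlaHsd wildtype males (the strain field reads C57BL/6J) that were 9 weeks old at the start, received a low fat diet for 3 weeks and then a high-fat diet for 12 weeks at 29°C, and were injected daily for 5 days with desferrioxamine (DFO, 100 mg/kg), a drug that binds iron. Food was removed for 2 h in all 10 mice. Control mice without DFO were not analysed here, so the values describe differences among treated mice and not an effect of DFO. On each array the RNA of 1 mouse carried the dye Cy5, while Cy3 marked a reference shared by all arrays, RNA pooled from the mice of the wider study, controls included. Values are log2 ratios of Cy5 over Cy3, so 1 unit is a doubling relative to the pool, and mice carry their replicate number. The dyes were not swapped, so dye bias is part of every ratio. No ratio was tested against 0, and the level of one gene was not set against that of another. The 10 arrays lay on 5 slides, and the number of arrays limits the precision.

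Collagens are proteins of the matrix outside cells, built of chains that wind around each other in threes as a triple helix. Fibrillar collagens such as types I, III and V form the fibrils of connective tissue, type IV forms the sheet of basement membranes around vessels and adipocytes, and type VI forms beaded filaments that surround fat cells. In the cell, chains are hydroxylated by prolyl and lysyl hydroxylases, enzymes that need iron, then folded with the help of the chaperone Hsp47, secreted, trimmed and cross-linked by lysyl oxidases. Adipose tissue of obese mice is known for the growth of such a matrix.

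A triple helix carries glycine at each step of 3 residues, and the array shows this directly for *Col15a1*, a basement membrane collagen of the multiplexin class. Its brightest probe lies on chromosome 4 of the build mm9, chr4:47283786-47283845 on the plus strand. Below, capitals mark GG, the first 2 bases of a glycine codon, at 6 of 6 places that lie 9 bases apart.
Col15a1 probe: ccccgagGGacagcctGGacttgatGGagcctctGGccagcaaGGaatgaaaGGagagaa
The other 2 probes of the gene lie 41416 bases or more downstream and gave other values, as described further on.

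Type IV genes lie in pairs that start back to back, and their promoters were read from RefSeq (GRCm38.p6), which held 38 windows for 35 of the 43 genes. *Col4a1* and *Col4a2* start 21 bases apart, and the stretch from one start to the other, chr8:11312805-11312826 on the plus strand, is shown because both genes share it. By these starts their transcripts overlap over this stretch, so it lies inside both and not before the starts. The starts of *Col4a5* and *Col4a6* lie 1343 bases apart, and the 250 bases before each start are shown (chrX:141475169-141475418, plus strand, and chrX:141474077-141474326, minus strand). The same bases are shown for *Col1a2* (chr6:4505368-4505617, plus strand) and *Col3a1* (chr1:45311288-45311537, plus strand), both fibrillar genes, whose values in mice 4 to 7 are described beside those of the type IV genes further on. Capitals mark 5 motifs searched on both strands. They were GGGCGG, the core of an Sp1 site, the CCAAT box, the core TATAA of the TATA box, and the letters ACGTG or GCGTG, which form the core of sites for the hypoxia-inducible factors. Their reverse complements are CCGCCC for the Sp1 core, ATTGG for the box, TTATA for the TATA core, CACGT for ACGTG and CACGC for GCGTG.
Col4a1 and Col4a2: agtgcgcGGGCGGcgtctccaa
Col4a5: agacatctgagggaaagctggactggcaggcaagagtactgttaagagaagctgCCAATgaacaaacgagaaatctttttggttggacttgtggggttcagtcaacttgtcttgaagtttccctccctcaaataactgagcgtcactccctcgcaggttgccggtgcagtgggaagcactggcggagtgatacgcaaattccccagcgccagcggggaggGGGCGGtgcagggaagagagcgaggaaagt
Col4a6: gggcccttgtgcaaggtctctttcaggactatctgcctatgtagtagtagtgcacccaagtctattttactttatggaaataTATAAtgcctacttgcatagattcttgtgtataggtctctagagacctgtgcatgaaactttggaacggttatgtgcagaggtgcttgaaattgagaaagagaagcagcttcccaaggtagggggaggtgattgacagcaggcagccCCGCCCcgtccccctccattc
Col1a2: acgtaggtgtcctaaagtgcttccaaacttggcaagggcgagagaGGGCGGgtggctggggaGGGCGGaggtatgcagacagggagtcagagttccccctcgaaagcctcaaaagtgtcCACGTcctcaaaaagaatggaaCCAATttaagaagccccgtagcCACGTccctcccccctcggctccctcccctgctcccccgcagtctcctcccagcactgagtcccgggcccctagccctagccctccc
Col3a1: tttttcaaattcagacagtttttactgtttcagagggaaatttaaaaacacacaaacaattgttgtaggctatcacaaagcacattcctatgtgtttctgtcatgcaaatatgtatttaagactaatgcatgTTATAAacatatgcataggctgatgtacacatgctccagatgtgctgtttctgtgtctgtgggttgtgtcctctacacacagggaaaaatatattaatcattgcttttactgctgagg
The *Col1a2* window held ACGTG at 2 places and GGGCGG at 2, and the *Col3a1* window held TATAA on both strands in 1 overlapping stretch and none of the other motifs. Among the 27 windows of collagen genes whose RNA was measured above background, GGGCGG was found in 66.7% (32.7% of the 32851 windows of all genes), CCAAT in 29.6% (33.8%), TATAA in 7.41% (22.8%), ACGTG in 14.8% (16.6%) and GCGTG in 22.2% (28.2%). Over the 38 windows of all collagen genes the shares were 57.9%, 34.2%, 18.4%, 13.2% and 21.1%, in the same order. The windows of all genes were not limited to expressed genes, so a share common to expressed genes was not tested. A match is a description of the letters, and binding was not measured.

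Of the 43 collagen genes, 29 were expressed, meaning that the scanner software called Cy5 well above background on 5 arrays or more, and 24 of them were so on all 10. The other 14 were well above background on 3 arrays or fewer and are not described by level. Among them were *Col2a1*, *Col9a1*, *Col9a3*, *Col10a1*, *Col11a1* and *Col11a2*, collagens of cartilage, *Col17a1*, the collagen of epithelial anchoring, and *Col4a3*, the usual partner chain of *Col4a4*. *Col6a4*, *Col13a1*, *Col19a1*, *Col22a1*, *Col25a1* and *Col28a1* were also not expressed by this rule.

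Expressed collagen genes differed between mice by 1.18-fold to 5.21-fold from the lowest to the highest mouse, and 12 of the 29 by more than 2-fold. Their median SD of the log2 ratio over the 10 mice was 0.29, against 0.18 over all 27718 expressed probes with a value on each array. For 25 genes both channels could be compared, and log2 Cy5, from single mice, varied more between arrays than log2 Cy3, from the pool, for 23 of them (Pitman-Morgan test of paired variances, Benjamini-Hochberg adjusted over all probes). Over all 25049 probes tested the share was 59.8%. None of the 25 varied less, which held for 0.164% of all probes. The exceptions were *Col20a1* (SD of 0.10 in Cy5 and 0.15 in Cy3, adjusted p = 0.0682), a dim fibril-associated collagen, and *Col23a1* (0.20 and 0.09, adjusted p = 0.0639), a transmembrane collagen. The median SD of the tested collagen genes was 0.30 in Cy5 and 0.08 in Cy3, against 0.20 and 0.08 over all tested probes. Without normalization between arrays 6 of the 25 genes passed, against 4684 of all 25049 probes.

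**Figure D1:**
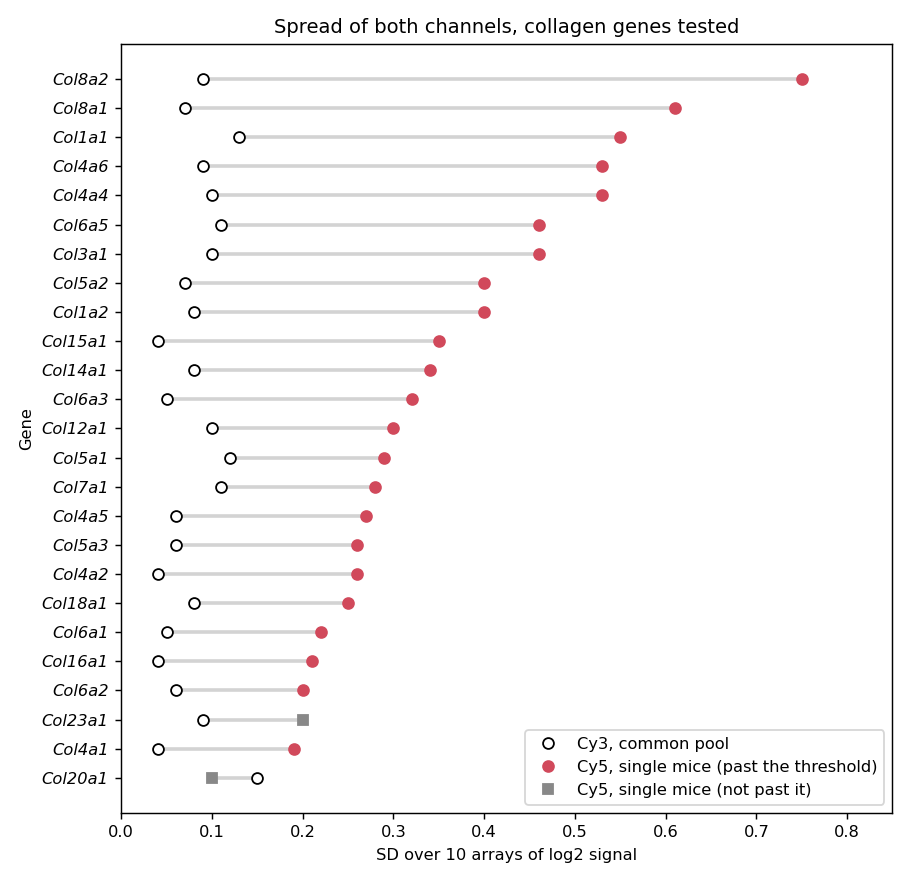
SD over the 10 arrays of log2 Cy5 (filled, single mice) and log2 Cy3 (open, the common pool) for the 25 collagen genes tested; the horizontal axis is in log2 units. *Col8a2* had the widest gap, 0.75 in Cy5 against 0.09 in Cy3, and *Col20a1* is the gene with the smaller SD in Cy5.

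Mice 4, 5, 6 and 7 stood apart over the whole array: they parted from the other 6 on the first principal component, which held 75.1% of the variance of the expressed probes. These mice lay on 3 of the slides, 2 of which they shared with mice 3 and 8. They are named here only to describe an order of values, and they are no group of the study. They held the 4 highest log2 ratios in 7 of the 29 collagen genes (17.9% of all expressed probes) and the 4 lowest in 9 (21.3%). With the scanner software's own ratio the counts were 7 and 9 (21.8% and 19.9% of all expressed probes), with median centring in place of loess 8 and 3 (16.5% and 6.75%), and with the deposited normalized values 6 and 4 of 28 (22.8% and 14.6%), and no gene turned from highest to lowest in any of them. Median centring moved the median log2 ratio of expressed probes from 0.01 to 0.317. Mouse 2 stood apart on the second component, with a score of 0.928 against 0.01 or less in the others. In 3 of the 29 collagen genes 1 mouse lay far from the other 9 (5.18% of all expressed probes), namely mouse 2 in *Col4a4* and *Col8a2* and mouse 4 in *Col14a1*. The slide reached the threshold for no probe (0.0% of 27718, limma's moderated F test). At an unadjusted p under 0.05 it did so for 4.1% of probes and for 4 of the 29 collagen genes. As 2 slides held a mouse of 4 to 7 beside another mouse, their difference entered the spread within slides. The test had little power to find a slide effect.

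Several measurements of cell content moved with the same mice. All 10 adipocyte markers were lowest in mice 4 to 7 (6 with median centring; *Retn* had no value in mouse 9), with a list mean of -2.28 to -1.32 there and -0.17 to 0.61 in the others. Of 10 macrophage markers 9 were highest there (list mean 0.66 to 0.95, against -1.09 to -0.10) and *Cd163* was lowest, an order it did not have in the deposited values. Markers of endothelium were lowest there for 8 of 10 genes (-0.85 to -0.57, against 0.05 to 0.25), those of mural cells of vessels for 8 of 10 (-1.08 to -0.76, against -0.10 to 0.71), those of mesothelium for 6 of 10 (-1.47 to -1.06, against -0.51 to 0.30) and those of blood for 4 of the 6 expressed (-1.16 to -0.70, against -0.44 to 0.39). With median centring the counts of these last 4 lists were 1, 5, 2 and 0, and their means overlapped between these mice and the others, while those of adipocyte and macrophage markers did not. Fibroblast markers, the cells that make most fibrillar collagen, overlapped, with -0.42 to -0.13 in mice 4 to 7 and -0.27 to 0.05 in the others. So did the 8 expressed Schwann cell markers (0.08 to 0.20, against -0.09 to 0.19) and the 3 expressed genes of sperm and epididymis (-2.79 to -2.27, against -2.67 to -1.02). Among the defining markers, *Erbb3* of Schwann cells, *Odf1* of sperm and the epididymal *Lcn8*, *Lcn9*, *Crisp1*, *Defb20* and *Spink11* were well above background in Cy5 on no array, while Cy3 was so on 10 arrays for *Crisp1* and on 1 for *Erbb3*. In whole tissue, fewer cells of a type and less RNA per cell cannot be told apart, and the part of cell content in the values below was not tested.

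**Figure D2:**
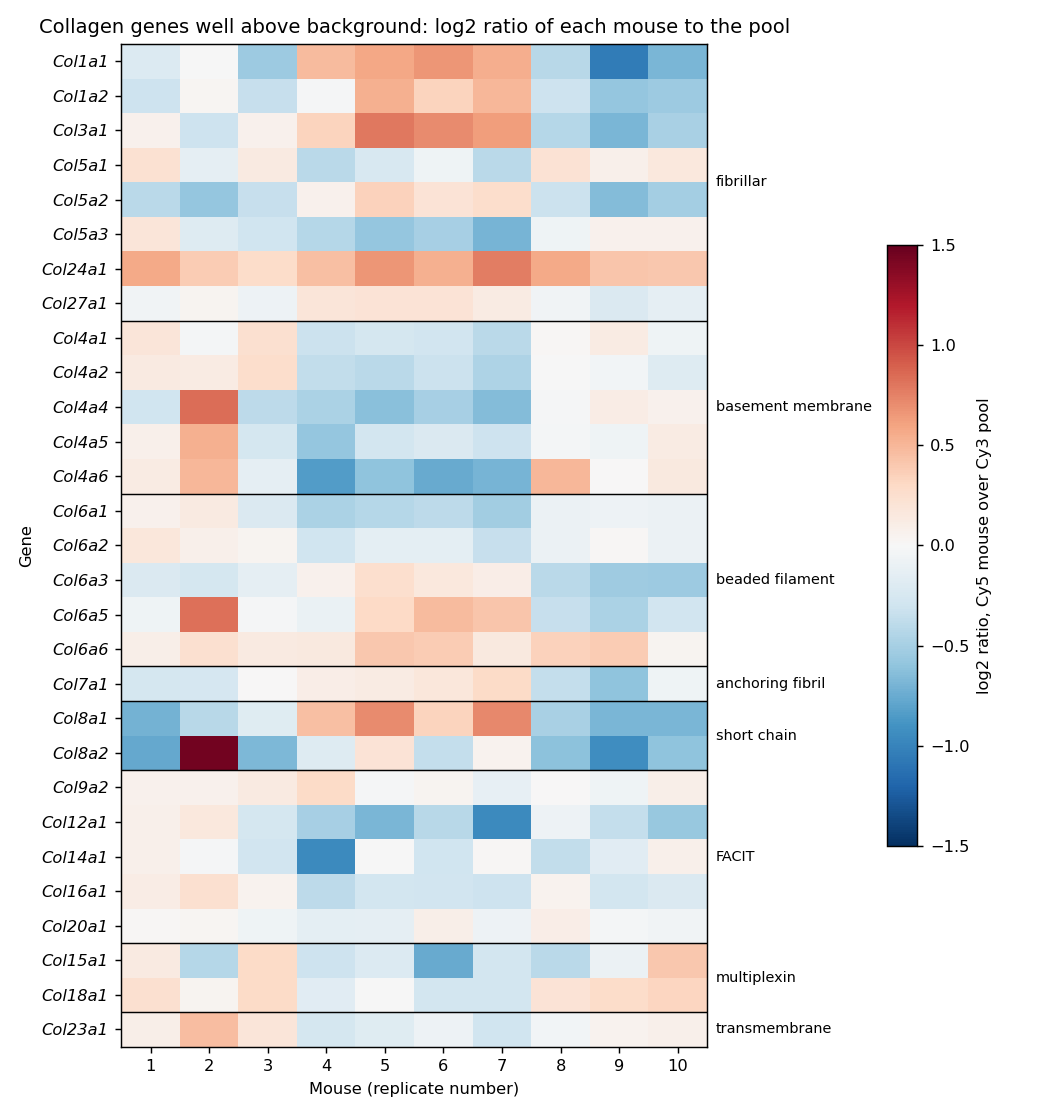
Log2 ratio to the pool (colour) of the 29 expressed collagen genes (rows, by structural class) in the 10 mice (columns, by replicate number). Red blocks in mice 4 to 7 mark *Col1a1*, *Col3a1*, *Col5a2* and *Col8a1*, blue blocks the type IV genes, and the darkest cell is *Col8a2* in mouse 2 (1.45). These mice did not hold the 4 lowest values of *Col4a5*. For *Col4a1* and *Col4a2* they did, but not with median centring or the deposited values.

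Fibrillar collagens split by gene. *Col1a1*, which encodes the main chain of type I collagen (chr11:94813115-94813174 of mm9, plus strand), had log2 ratios of -1.05 in mouse 9, a median of -0.11 and 0.66 in mouse 6. *Col1a2*, the partner chain, ran from -0.58 in mouse 9 over a median of -0.16 to 0.53 in mouse 5. *Col3a1*, the chain of type III collagen, ran from -0.68 in mouse 9 over 0.06 to 0.79 in mouse 5. Mice 4 to 7 held the 4 highest values of *Col1a1* and *Col3a1*, also with the scanner's ratio, median centring and the deposited values. For *Col1a2* mouse 4 (-0.02) lay just below mouse 2 (0.03), and by those 3 other measures mouse 4 too was above mouse 2. The SDs in Cy5 and Cy3 were 0.55 and 0.13 for *Col1a1* (adjusted p = 0.00116) and 0.46 and 0.10 for *Col3a1* (adjusted p = 0.000272).

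Type V collagen, which sits in the core of fibrils and sets their width, was measured by 3 chains. *Col5a2* ran from -0.65 in mouse 9 over a median of -0.34 to 0.34 in mouse 5, with mice 4 to 7 highest. *Col5a1* ran from -0.40 in mouse 7 over 0.00 to 0.23 in mouse 1, and mice 4 (-0.40), 5 (-0.24) and 7 were its lowest, followed by mouse 2 (-0.13) and mouse 6 (-0.07). *Col5a3* ran from -0.70 in mouse 7 over -0.25 to 0.18 in mouse 1, with mice 4 to 7 lowest, an order that was lost with median centring and with the deposited values. In mouse 5, for example, the ratio to the pool was 0.34 for *Col5a2* and -0.58 for *Col5a3*. Of the other fibrillar genes, *Col27a1* ran from -0.22 to 0.21 with mice 4 to 7 highest except in the deposited values, but Cy3 was well above background on 2 arrays only. *Col24a1* had ratios of 0.28 to 0.77, above 0 in 10 of 10 mice, with Cy3 well above background on 0 arrays, so its ratio is to a signal near background.

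Of the 5 expressed basement membrane genes, 4 had their 4 lowest values in mice 4 to 7 (21.3% of all expressed probes). With the scanner's ratio 5 did (19.9%), with median centring 2 (6.75%) and with the deposited values 3 (14.6%). *Col4a4* and *Col4a6* had this order with each ratio tried. *Col4a1*, printed in 10 spots on each array (chr8:11199009-11199068, minus strand), ran from -0.40 in mouse 7 over -0.04 to 0.24 in mouse 3. Its SD over the 10 spots of 1 array was 0.0372 to 0.2045, and its SD over mice was 0.23. *Col4a2*, the partner chain in the common type IV network, ran from -0.46 in mouse 7 over -0.12 to 0.26 in mouse 3. Both had their 4 lowest values in mice 4 to 7, and both lost that order with median centring and with the deposited values. Cy5 varied more than Cy3 for both (SD 0.19 and 0.04, adjusted p = 5.96e-05, and 0.26 and 0.04, adjusted p = 0.000149).

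The rarer type IV chains had wider ranges. *Col4a6* ran from -0.84 in mouse 4 over -0.06 to 0.50 in mice 2 and 8 and had the largest SD of the class, 0.51. *Col4a5*, on the other strand of the X chromosome, ran from -0.58 in mouse 4 over -0.14 to 0.53 in mouse 2. *Col4a4* ran from -0.65 in mouse 7 over -0.35 to 0.84 in mouse 2, far above the next mouse (0.11). Mouse 2 was thus highest for *Col4a4* and *Col4a5* and level with mouse 8 for *Col4a6*, while mice 4 to 7 were lowest for *Col4a4* and *Col4a6*. The second probe of *Col4a6* did not show this order: its 4 highest values were 0.39 in mouse 4, 0.25 in mice 5 and 6 and 0.13 in mouse 1.

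**Figure D3:**
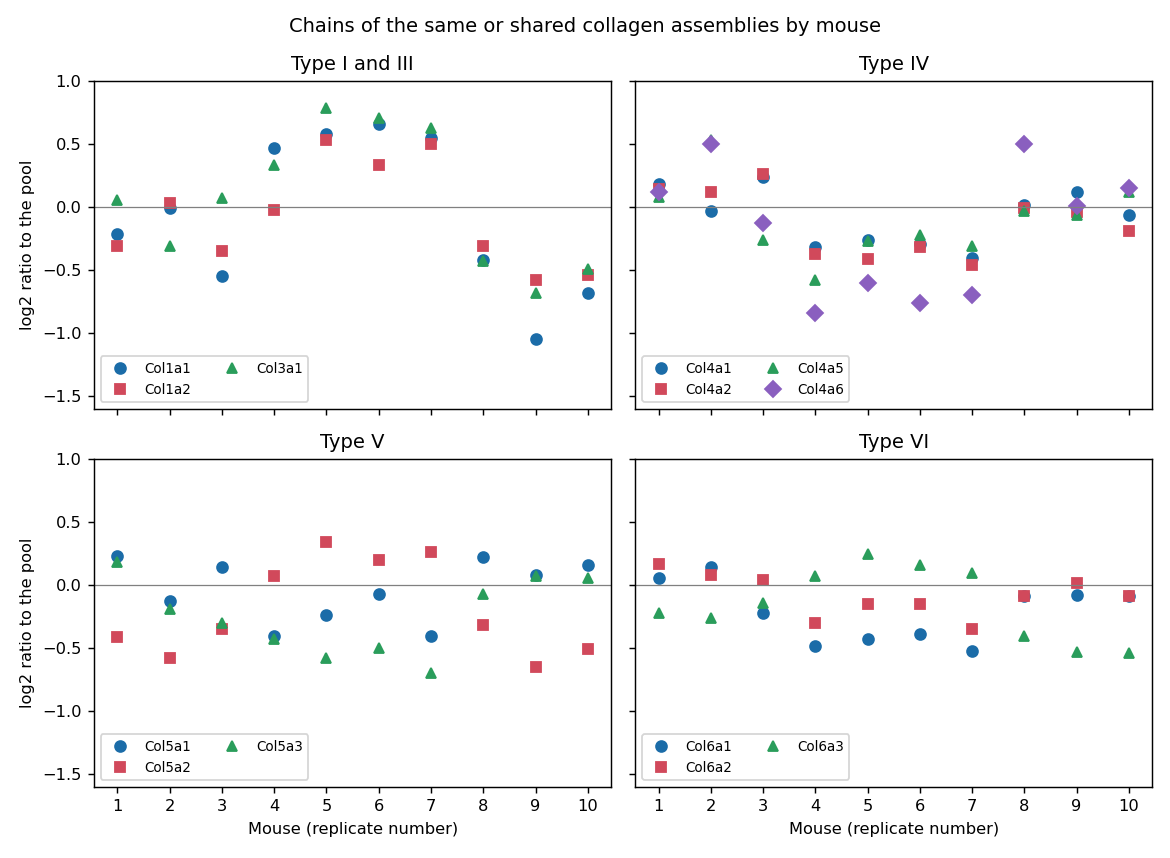
Log2 ratio to the pool (vertical axis) by mouse (horizontal axis) for chains of types I and III, IV, V and VI; each symbol is 1 gene. In mice 4 to 7 *Col5a2* lies above *Col5a1* and *Col5a3*, and *Col6a3* (0.07 to 0.25) above *Col6a1* (-0.52 to -0.39).

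Type VI collagen is built from the chains of *Col6a1*, *Col6a2* and *Col6a3*, and the last of these also gives rise to the adipokine endotrophin. *Col6a1* ran from -0.52 in mouse 7 over -0.15 to 0.14 in mouse 2. *Col6a2*, its neighbour on chromosome 10, ran from -0.35 in mouse 7 over -0.09 to 0.17 in mouse 1, and its second probe from -0.40 to 0.37. *Col6a3*, on chromosome 1, ran from -0.54 in mouse 10 over -0.18 to 0.25 in mouse 5. Mice 4 to 7 were the 4 lowest for *Col6a1* and *Col6a2* and the 4 highest for *Col6a3*. The low order of the first 2 genes was lost with median centring and with the deposited values, while that of *Col6a3* was found with each ratio tried. *Col6a5* had the largest SD of this class (0.42) and ran from -0.48 in mouse 9 over -0.04 to 0.83 in mouse 2. *Col6a6* ran from 0.04 to 0.40, with Cy3 well above background on 2 arrays.

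The 2 expressed short chain collagens had the largest median SD of the classes (0.64). *Col8a1*, a chain of the type VIII collagen of vessel walls (chr16:57624471-57624530, minus strand), ran from -0.71 in mouse 1 over -0.30 to 0.72 in mouse 7. Its values in mice 4 to 7 were 0.45, 0.71, 0.33 and 0.72, and the other 6 mice lay at -0.18 or lower. *Col8a2*, the partner chain (chr4:125991441-125991500, plus strand), ran from -0.93 in mouse 9 over -0.48 to 1.45 in mouse 2, the next mouse being mouse 5 with 0.21. With the scanner's ratio and with the deposited values the gap of mouse 2 came to 0.398 and 0.40 of the range of *Col8a2*, too little to count it as far from the others. The spread of Cy5 was 8.48 times that of Cy3 for *Col8a1* (adjusted p = 1.41e-05) and 8.18 times for *Col8a2* (adjusted p = 7.8e-06). In mouse 2 *Col8a1* was -0.42. The smooth muscle genes *Cnn1* (2.22) and *Myh11* (1.29) were also at their highest there, and their part in the value of *Col8a2* was not tested.

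*Col7a1*, the chain of anchoring fibrils, ran from -0.60 in mouse 9 over -0.03 to 0.29 in mouse 7, with mice 4 to 7 highest, an order that was lost with the scanner's ratio and with the deposited values. *Col23a1*, the sole transmembrane collagen expressed, ran from -0.30 in mouse 7 over 0.00 to 0.46 in mouse 2.

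Among the FACIT collagens, which lie on the surface of fibrils, *Col12a1* had the largest SD (0.35). It ran from -0.95 in mouse 7 over -0.39 to 0.16 in mouse 2. *Col14a1* ran from -0.95 in mouse 4 over -0.09 to 0.08 in mouse 10, and mouse 4 lay well below the next mouse (-0.37). Its second probe, which lies upstream of the first, had -0.26 in mouse 4, close to -0.23 in mouse 9, so that mouse 4 did not stand alone there. Nor was it far from the others by the first probe with the scanner's ratio, median centring or the deposited values. *Col16a1* ran from -0.39 to 0.24 and *Col9a2* from -0.12 to 0.29. No FACIT gene had mice 4 to 7 as its 4 highest or 4 lowest by its brightest probe, while *Col16a1* had them lowest by the mean over its probes.

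The multiplexins *Col15a1* and *Col18a1*, whose ends are cleaved off as the angiogenesis inhibitors restin and endostatin, also differed by probe. By the triple helix probe printed above, *Col15a1* ran from -0.76 in mouse 6 over -0.24 to 0.40 in mouse 10 (SD in Cy5 and Cy3 0.35 and 0.04, adjusted p = 1.52e-05). By its other 2 probes, which overlap each other by 48 bases, it ran from -0.27 to 0.17 and from -0.30 to 0.11, with mouse 9 highest in both. *Col18a1* ran from -0.28 in mouse 6 over 0.12 to 0.32 in mouse 10 by its brightest probe, with mice 4 to 7 lowest except with median centring and the deposited values, and from -0.40 to 0.11 by the other, with mouse 4 highest. The values of both genes therefore hold for single probes.

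**Figure D4:**
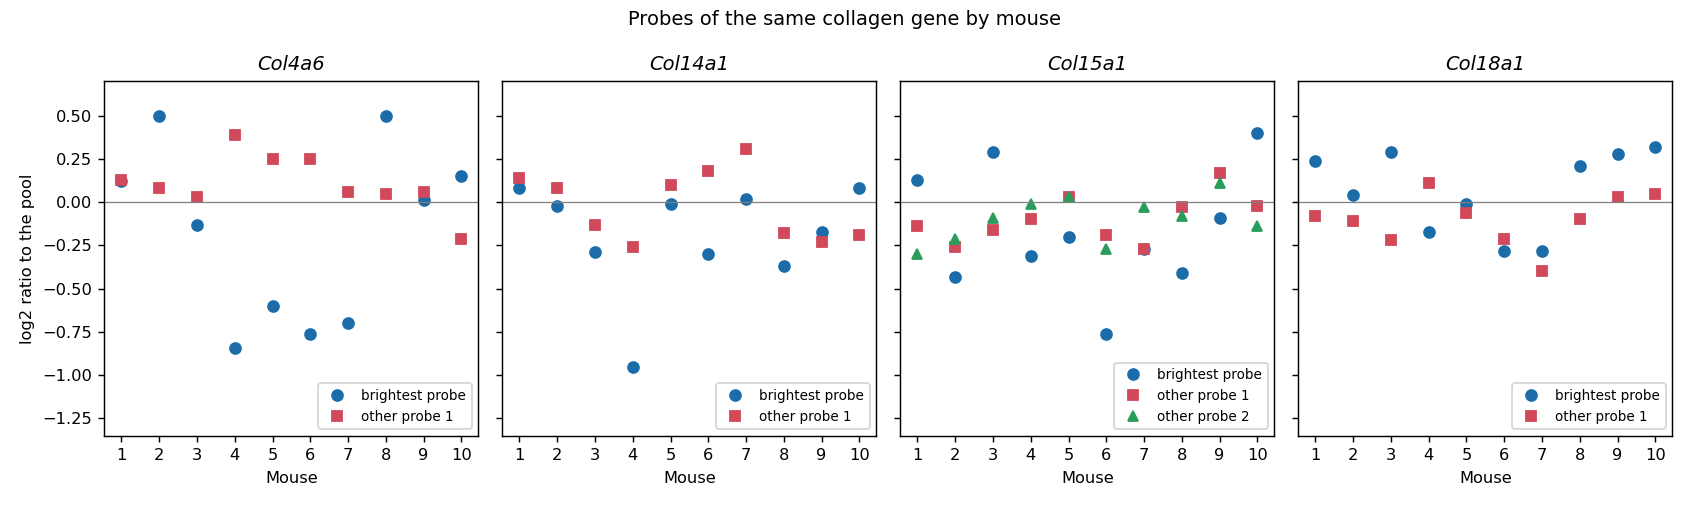
Log2 ratio to the pool (vertical axis) by mouse (horizontal axis) for each expressed probe of *Col4a6*, *Col14a1*, *Col15a1* and *Col18a1*; circles are the brightest probe of the gene. The probes of *Col4a6* part most in mouse 4 (-0.84 and 0.39).

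Relations between genes were computed within mice 1, 2, 3, 8, 9 and 10, since in every pair at least 1 gene parted the mice into clusters. Of 16 pairs 15 could be tested, and 0 passed after Benjamini-Hochberg adjustment over the pairs (exact permutation test, two-sided), with 4 at an unadjusted p under 0.05. Over 6 mice the smallest p possible for rho is 0.00278, and that for r can be lower. *Col1a1* and *Col1a2* had an r of 0.903 (n = 6, exact permutation p = 0.0194, adjusted p = 0.161) and a rho of 0.943 (p = 0.0167, adjusted p = 0.125), and r fell to 0.780 once the 2 mice most distant from the median were left out. *Col15a1* and *Col18a1* had an r of 0.789 (exact p = 0.0222, adjusted p = 0.161) and a rho of 0.943, with an r of 0.532 without such mice. *Col6a3* and *Adipoq*, the adipocyte hormone adiponectin, had an r of -0.881 (exact p = 0.0389, adjusted p = 0.161) and a rho of -0.771, with an r of -0.868 without them. This r depended on the normalization, with -0.163 by the deposited values and 0.715 with median centring. *Col1a1* and the cross-linking enzyme gene *Lox* had an r of 0.822 (exact p = 0.0431, adjusted p = 0.161) and a rho of 0.886, with an r of 0.740 without the 2 farthest mice. The back-to-back pairs *Col4a1* and *Col4a2* (0.712) and *Col4a5* and *Col4a6* (0.699) had an r of 0.0159 and -0.161 without the 2 farthest mice, so these relations rested on those mice. Within the 6 mice, *Col5a1* and *Col5a2* had an r of 0.660 and *Col6a1* and *Col6a3* of 0.109 (exact p = 0.133 and 0.807, adjusted p = 0.250 and 0.807). With median centring, where 8 of the 15 pairs passed, these became 0.940 and 0.969 (adjusted p = 0.0365 for both by the exact permutation test). The other pairs were *Col1a1* with *Col3a1* (0.559), *Pdgfra* (0.794), *P4ha1* (0.156) and *Serpinh1* (-0.255), *Col6a1* with *Col6a2* (0.520), *Col8a1* with *Col8a2* (0.294) and *Col4a1* with *Cdh5* (0.269), with adjusted p between 0.183 and 0.807 by the exact permutation test.

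In the lists that follow, counts stand against 59.8% of all tested probes that varied more in Cy5, and against 17.9% and 21.3% of expressed probes with mice 4 to 7 highest and lowest (16.5% and 6.75% with median centring, 22.8% and 14.6% with the deposited values). Of 15 genes of hydroxylation and glycosylation 14 were expressed and tested, 11 varied more in Cy5 than in Cy3 and 0 less, and the median SD of the log2 ratio was 0.16. Mice 4 to 7 held the 4 highest values in 4 of the 14 and the 4 lowest in 1, against 7 and 0 with median centring and 8 and 0 with the deposited values. *Leprel2*, a prolyl 3-hydroxylase, ran from -0.40 in mouse 9 over 0.06 to 0.62 in mouse 4. *Glt25d1*, a collagen galactosyltransferase, ran from -0.56 in mouse 9 over 0.09 to 0.58 in mouse 4. *Plod2*, the lysyl hydroxylase that prepares stable cross-links, ran from -0.81 in mouse 8 over -0.40 to 0.24 in mouse 4. By the brighter of its 2 probes *P4ha1*, the catalytic subunit of prolyl 4-hydroxylase, ran from -0.35 in mouse 3 over -0.15 to 0.54 in mouse 7 with mice 4 to 7 highest. Its relative *P4ha2* ran from -0.33 in mouse 7 to 0.21 in mice 1 and 9 with mice 4 to 7 lowest. The order of *P4ha2* was lost with median centring and with the deposited values.

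Of 12 genes of folding and export all were expressed and tested, and 8 (59.8% over all probes) varied more in Cy5. Mice 4 to 7 held the 4 lowest values in 7 of them (21.3% over all probes) and the 4 highest in 1, *Fkbp10*, but with median centring the 4 lowest in 0 and with the deposited values in 3. *Serpinh1*, the chaperone Hsp47, ran from -1.06 in mouse 7 over -0.20 to 0.23 in mouse 3. *Sparc*, a collagen-binding matrix protein, ran from -0.96 in mouse 7 over 0.34 to 0.76 in mouse 3. Its Cy5 did not pass the Pitman-Morgan test (adjusted p = 0.533), with an SD of 0.34 in Cy5 and 0.36 in Cy3 after normalization. The SD of its log2 ratio was 0.69. Cy3 carried the same pool on every array, so this Cy3 spread is no difference in the pool's RNA. Where it came from was not tested. *Sar1a*, of the vesicles that carry procollagen, ran from -0.63 in mouse 7 over -0.04 to 0.10 in mouse 1. *Serpinh1* was thus lowest in the mice in which *Col1a1* was highest, but not with median centring or the deposited values.

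Of the 8 genes that remove propeptides 6 were expressed, 5 tested and 3 passed, a share close to that of all probes. *Pcolce2* ran from -1.68 in mouse 4 over -0.15 to 0.11 in mouse 1, with mice 4 to 7 lowest except with median centring. The related enhancer gene *Pcolce* ran from -0.84 in mouse 9 over -0.21 to 0.55 in mouse 5, and the protease *Adamts14* from -0.41 in mouse 8 over -0.15 to 0.75 in mouse 7, both with mice 4 to 7 highest. Of the 6 cross-linking genes 4 passed. *Tgm2*, a transglutaminase, ran from -0.63 in mouse 4 over -0.13 to 0.53 in mouse 3, *Lox* from -0.72 in mouse 7 over -0.20 to 0.19 in mouse 2, and *Loxl1* from -0.33 in mouse 9 over -0.09 to 0.49 in mouse 4.

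Genes of collagen breakdown spread most among these lists, with a median SD of 0.70. Of 12 genes 10 were expressed, and all 10 (59.8% over all probes) varied more in Cy5 than in Cy3. Mice 4 to 7 held the 4 highest values in 8 of the 10 (17.9% over all probes) and the 4 lowest in *Timp3*, and with median centring or the deposited values the 4 highest in 9. The list mixes proteases with the inhibitor genes *Timp1*, *Timp2* and *Timp3*. *Timp1* was among the 8, with 0.72 to 1.08 in mice 4 to 7, and *Timp2* was the gene added by those other measures. *Mmp3*, stromelysin, ran from -1.52 in mouse 9 over -0.50 to 1.70 in mouse 7, *Ctsk*, the collagen-cleaving cathepsin K, from -1.55 in mouse 9 over -0.54 to 1.28 in mouse 7, and the inhibitor gene *Timp3* from -1.93 in mouse 7 over -0.03 to 0.72 in mouse 9. *Ctsk* and *Mmp13* are also made by macrophages, whose markers were highest in the same mice, and the share of these cells in the values was not tested.

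Of 12 fibril-associated matrix genes 11 were expressed and 10 passed the test, with mice 4 to 7 highest in 3 and lowest in 3, against 3 and 0 with median centring. *Postn*, periostin, ran from -0.78 in mouse 9 over -0.64 to 1.48 in mouse 4, *Lum*, lumican, from -0.91 in mouse 9 over -0.02 to 0.91 in mouse 7, and *Comp* from -0.88 in mouse 10 over -0.27 to 0.66 in mouse 2. *Dcn*, *Lum* and *Dpt* stand in this list and in the list of fibroblast markers. Of 10 collagen receptors 8 were expressed and 7 passed, with mice 4 to 7 highest in 1 and lowest in 4, against 2 and 2 with median centring. *Itga1*, the integrin chain that binds type IV collagen, ran from -1.67 in mouse 7 over -0.07 to 0.29 in mouse 10. *Ddr1*, a receptor kinase, ran from -1.58 in mouse 7 over -0.13 to 0.64 in mouse 2, both with mice 4 to 7 lowest. *Lair1*, a receptor of leukocytes, ran from -1.32 in mouse 9 over 0.00 to 1.07 in mouse 7, with them highest.

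**Figure D5:**
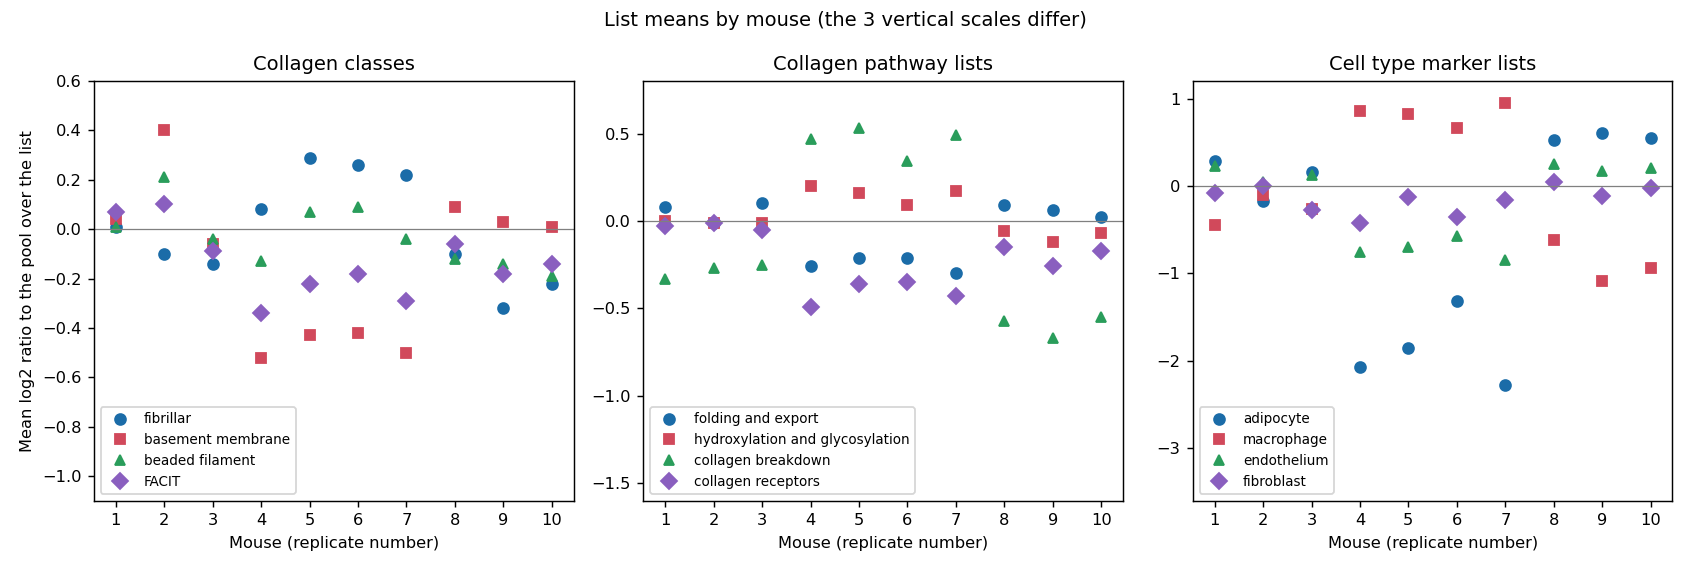
Mean log2 ratio to the pool over the expressed genes of a list (vertical axis, with a scale of its own in each panel) by mouse (horizontal axis) for collagen classes, collagen pathway lists and cell type marker lists. In mice 4 to 7 the basement membrane class lay at -0.52 to -0.42 (overlapping the others with median centring), the breakdown list (proteases and inhibitors together) at 0.34 to 0.53 and the adipocyte markers at -2.28 to -1.32.

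By the class means, fibrillar genes were highest in mice 4 to 7 (0.08 to 0.29, against -0.32 to 0.01 in the others) and basement membrane genes lowest (-0.52 to -0.42, against -0.06 to 0.40). The first held with each ratio tried, while with median centring the basement membrane mean was -0.13 to 0.08 in mice 4 to 7 and -0.19 to 0.93 in the others. Of the 8 fibrillar genes, 4 had mice 4 to 7 highest and 1 lowest (17.9% and 21.3% of all expressed probes). Their mean includes *Col24a1* and *Col27a1*, whose Cy3 was well above background on 0 and 2 arrays. The beaded filament, FACIT, short chain and multiplexin classes overlapped between these mice and the others, except that with the deposited values the FACIT class was lowest in mice 4 to 7.

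The markers set beside collagen genes had these values. *Pdgfra*, a receptor of fibroblasts, ran from -0.45 in mouse 9 over 0.00 to 0.25 in mouse 5. *Cdh5*, the cadherin of endothelial cells, ran from -1.38 in mouse 4 over 0.16 to 0.55 in mouse 8. *Adipoq* ran from -2.78 in mouse 7 over -0.05 to 0.81 in mouse 9. The 4 lowest values of *Cdh5* and *Adipoq* lay in mice 4 to 7, as did those of *Col4a1* and *Col4a2*, but with median centring this held for *Adipoq* alone among these 4 genes.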

How the data were processed

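RNA of eWAT from 10 DFO-injected mice was measured on 2-colour Agilent 8x60K arrays. The authors deposited 1 scanner file per array (Agilent Feature Extraction 10.7.3.1, annotation on mm9), with intensity values per spot (mean signal and median of the local background) and no normalization. These deposited files also give a log10 ratio of Cy5 over Cy3, for which the software subtracted background and normalized the dyes. A table the authors deposited holds normalized values of 30733 spots, log2 judging by their range. Their normalization is not given in the sources used here. Their deviations from each probe's mean correlated with those of the new log2 ratio (r = 0.918 over expressed probes and mice, slope 1.1), and each column followed log2 Cy5. They held 28 of the 29 expressed collagen genes.

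Mean signals were corrected by normexp (offset 50) and loess within arrays, and channels by Aquantile between arrays, with limma 3.58.1 in R 4.3.3. Control and outlier spots were left out and spots of a probe averaged. A gene was represented by its probe with the highest mean Cy5. Median signals were 54.84 to 81.29 in Cy5 and 64.8 to 84.09 in Cy3, and no spot was saturated. Cy5 and Cy3 variances were compared per probe with the Pitman-Morgan test (probes well above background in both channels on 5 arrays or more, adjusted threshold 0.05), slides with limma's moderated F test, and pairs by exact permutation, in Python 3.11.15. The variance and slide tests were tested on simulated data. A gene counted as parting the mice where a gap between neighbouring values, with 3 mice or more to either side, reached 0.4 of its range, or where it parted mice 4 to 7.

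Values were given for both genes of each expressed pair, for the expressed member of each class with the largest SD, for members with 1 mouse far from the others, and for the 3 genes of each pathway list with the largest SD. Members, lists, pairs and this rule were chosen with earlier results of these data known. The labels do not say whether the mice shared cages, and p-values measure only the spread between these 10 samples. Some marker genes are not reported here by name.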

Additional observations from a re-analysis of the deposited data

Results flagged for a closer look

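In 3 of the 29 expressed collagen genes 1 mouse lay far from the other 9, as judged by its gap to the nearest mouse over the whole range. The same held for 5.18% of all expressed probes, a share counted in these data and not a chance rate. For *Col4a4* mouse 2 lay above the rest, and its gap took up 0.492 of the range (0.349 with the scanner's ratio and 0.460 with median centring, where it no longer counted as far). Mouse 2 also lay above the rest for *Col8a2*, with 0.523 of the range, but not far enough with the scanner's ratio (0.398) or the deposited values (0.40). Mouse 4 lay below the rest for *Col14a1*, with 0.563 of the range, but not far enough with the scanner's ratio (0.458), median centring (0.115), the deposited values (0.390) or the mean over probes (0.429). The second *Col14a1* probe did not set mouse 4 apart.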

How the results depend on the processing

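The 23 collagen genes whose Cy5 varied more than Cy3 became 19 to 24 under the other planned settings and 21 to 23 with single mice left out. Without normalization between arrays they became 6, and the 14970 of all probes 4684. Median centring left the 4 lowest values in mice 4 to 7 for 3 collagen genes and the deposited values for 4, in place of 9. These orders were checked after seeing the data. Genes with 1 far mouse numbered 5 with no background subtraction, 1 (*Col9a2*) with the scanner's ratio, 4 (*Col6a1*, *Col6a2*, *Col8a2*, *Col9a2*) with median centring, 2 (*Col4a4*, *Col20a1*) with the deposited values and 2 (*Col4a4*, *Col8a2*) with the mean over probes, in place of 3. Of the 15 pairs, 8 passed with median centring and 13 over all 10 mice, where the clusters of mice enter r, and 0 under the other settings run. With 1 of the 6 mice left out, or the slide as a block, only 5 points remain and a single pair could not pass the adjustment, so those zeros show no stability. The sign of r turned for *Col1a1* and *P4ha1* with the scanner's ratio (-0.308) and the mean over probes (-0.348), for *Col1a1* and *Serpinh1* (0.527) and *Col6a3* and *Adipoq* (0.715) with median centring, over all 10 mice for *Col5a1* and *Col5a2* (-0.704), *Col6a1* and *Col6a3* (-0.769) and *Col1a1* and *Lox* (-0.370), and with the slide as a block for the same 3 (-0.767, -0.982 and -0.795). With single mice left out r ranged from -0.114 to 0.848 for *Col6a1* and *Col6a3*, -0.823 to 0.526 for *Col1a1* and *Serpinh1*, -0.697 to 0.515 for *Col4a1* and *Cdh5* and -0.220 to 0.439 for *Col1a1* and *P4ha1*. The cause was not tested. No slide call was made for a collagen gene under any setting. No paired analysis was possible because the samples form 1 group.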
